A study of Mus musculus with 12 samples.

Results

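The genes described here are the 8 members of the family of suppressors of cytokine signalling: Cish, Socs1, Socs2, Socs3, Socs4, Socs5, Socs6 and Socs7. They were chosen by gene symbol in the platform annotation, which gave 12 probe sets for the 8 genes, out of 21425 probe sets with 1 symbol that stand for 19752 genes. Cells were splenic CD4+ T cells of male C57BL/6 mice aged 6 weeks, taken by negative selection and activated for 48 h with beads against CD3 and CD28, which all groups share. The groups were IL-12 at 100 U/ml for 2 h (5 arrays), IL-12 at 100 U/ml for 8 h (4 arrays), untreated for 2 h (2 arrays) and a baseline with no culture time in its label (1 array). No untreated sample at 8 h is among the groups. When IL-12 8 h is compared with untreated cells or with IL-12 2 h, the cytokine and the longer culture therefore cannot be told apart. No label ties the arrays of a group to separate mice or cultures. The p-values are therefore set by how far these arrays scatter, and that scatter may be technical.

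Cytokine receptors of the JAK-STAT type carry Janus kinases that phosphorylate STAT factors, and STATs in turn switch on genes of the SOCS family. The SOCS proteins bind the activated receptor or kinase through an SH2 domain and recruit a ubiquitin ligase through their SOCS box, which closes a negative feedback loop. In T cells Cish and Socs2 are known as targets of STAT5 downstream of IL-2, Socs3 as a target of STAT3 that inhibits receptors containing gp130 and also the IL-12 receptor, and Socs1 as an inhibitor of interferon-gamma, IL-2 and IL-4 signalling. IL-12 itself signals through JAK2, TYK2 and STAT4.

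The titles number the arrays: IL-12 arrays carry 2 to 4 or 5 to 6, untreated arrays 7 and 8, and the baseline array 5. No label says what the numbers stand for. The 5 arrays numbered 2 to 4 and the 7 numbered 5 to 8 are treated here as separate runs, because the arrays parted by them: arrays of 1 group correlated across genes at a median of 0.998 within a run and 0.992 between runs. Between the runs 24.3% of all 19752 genes differed in the model below, as estimated from the IL-12 groups, the only ones with both runs. The baseline array carries the number 5 but correlated better with arrays numbered 2 to 4 (median 0.993) than with the others (0.989). Markers of CD4 T cells were high on all arrays: the mean over 7 measured genes, among them Cd3e and Cd4, lay between 12.01 and 12.201 log2 units, and each of the 7 exceeded the median gene (7.37). Of 15 macrophage and monocyte markers 5 exceeded it, and of 2 CD8 T cell markers 1, Cd8b1. The macrophage mean moved with the run, between 6.58 and 6.70 in arrays numbered 2 to 4 and between 6.77 and 7.14 in the rest. The mean of 9 B cell markers lay between 6.93 and 7.11 in arrays numbered 2 to 4, between 6.69 and 6.88 in IL-12 and untreated arrays numbered 5 to 8, and at 7.15 at baseline.

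All levels below are log2 intensities, on which 1 unit is a doubling, and each gene is compared with itself across arrays, not with other genes. Each of the 8 genes lay above the median gene on average. The deposited table gave 2 probe sets for Socs2, 2 for Socs3 and 3 for Socs6, and the brightest stands for the gene. The test was limma's, with group means and run in 1 model; a gene was called where its p, adjusted by Benjamini and Hochberg's method across the 19752 genes, was under 0.05.

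**Figure D1:**
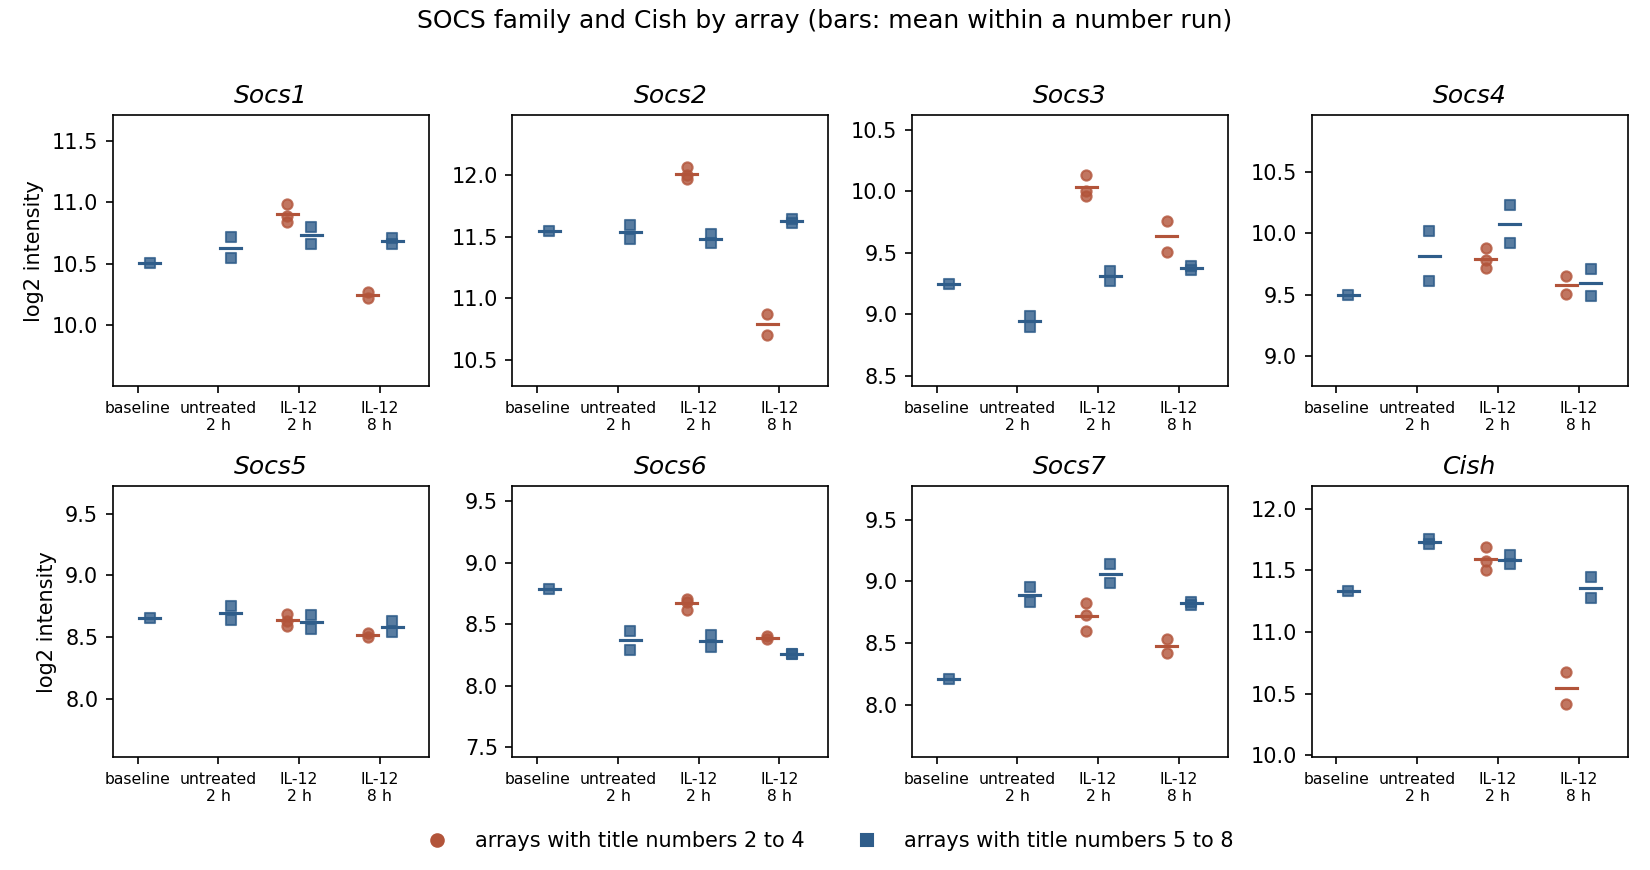
Log2 intensity of each of the 8 genes (vertical axis, equal span in every panel) in the 4 groups (horizontal axis); circles are arrays numbered 2 to 4, squares arrays numbered 5 to 8, and bars the mean within a run. Socs2 lay at 10.70 and 10.87 in IL-12 8 h arrays numbered 2 and 3, against 11.64 and 11.61 in those numbered 5 and 6.

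At 2 h of IL-12 no member passed the test against untreated cells, and Socs3 came nearest. Socs3 lay at 8.90 and 8.99 in untreated arrays 7 and 8. With IL-12 for 2 h it lay at 9.35 and 9.27 in arrays 5 and 6 and at 9.9998, 10.13 and 9.96 in arrays 2, 3 and 4. All 5 IL-12 arrays thus exceeded both untreated arrays, a separation that 6.58% of all genes showed in that direction. The model gave a log2 change of 0.49 ± 0.12 (SE; 1.41-fold, limma adjusted p = 0.422). Within arrays numbered 5 to 8 the change was 0.37 ± 0.09 (1.29-fold, limma adjusted p = 1.00, n = 2 and 2). In a bulk sample, fewer cells of a type and less RNA per cell cannot be told apart, here and below.

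The other members changed less at 2 h. Their model values were 0.32 ± 0.26 for Socs2, 0.27 ± 0.14 for Socs1, 0.19 ± 0.13 for Socs4, 0.17 ± 0.09 for Socs7, 0.08 ± 0.18 for Cish, 0.04 ± 0.08 for Socs6 and -0.05 ± 0.08 for Socs5, each with limma adjusted p = 0.999. The median over the 8 genes was 0.18, beside -0.0032 over all genes. In arrays numbered 5 to 8, where IL-12 and untreated arrays stand side by side, the median of the 8 was 0.050, and Socs2, Cish, Socs5 and Socs6 had negative values. Despite its positive model value, Cish was lower in all 5 IL-12 2 h arrays than in both untreated arrays, as 5.33% of all genes were. The run term of the model was -0.37 ± 0.13 for Cish, whose means at 2 h of IL-12 were 11.593 in arrays numbered 2 to 4 and 11.588 in the others. Limma called 0.0709% of all genes in this comparison, 0 of them members; at an unadjusted p under 0.05 the only member was Socs3, and a fit with an intensity trend and robust variances also called 0 members.

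In arrays numbered 5 to 8 Socs3 lay at like levels at 8 h and 2 h of IL-12. It lay at 9.36 and 9.39 in arrays 5 and 6, and at 9.51 and 9.76 in arrays 2 and 3. All 4 exceeded both untreated arrays, as 11.8% of all genes did. The change from untreated was 0.31 ± 0.12 in the model (limma adjusted p = 0.248) and 0.43 ± 0.09 in arrays numbered 5 to 8 (1.35-fold, limma adjusted p = 0.0601). In those arrays the order from low to high was untreated, baseline (9.24), IL-12 2 h and IL-12 8 h. The last 2 differed by 0.067 ± 0.098, less than its SE.

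The window around the start of Socs3 is shown because all 9 IL-12 arrays lay above both untreated arrays for this gene, though no comparison with untreated cells called it. It is the RefSeq window of GRCm38.p6, chr11:117969317-117969616 on the minus strand, 250 bases before and 50 after the start. Capitals mark TTCNNNGAA, the core letters of a STAT-binding element, searched on both strands (its reverse complement is itself).

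Socs3: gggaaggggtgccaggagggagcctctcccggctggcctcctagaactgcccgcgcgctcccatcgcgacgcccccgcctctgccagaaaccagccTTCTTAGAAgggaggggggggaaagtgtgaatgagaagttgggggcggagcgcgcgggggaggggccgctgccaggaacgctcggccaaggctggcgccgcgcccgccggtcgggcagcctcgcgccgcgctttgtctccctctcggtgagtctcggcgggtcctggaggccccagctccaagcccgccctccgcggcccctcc

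The 1 match, TTCTTAGAA, begins at base -154 from the start. Of 32851 windows of this length in the table, 8.3% hold TTCNNNGAA. A match describes letters, not binding.

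Cish, which encodes an inhibitor of STAT5-activating receptors and of T cell receptor signalling, was high in untreated cells and low after 8 h of IL-12. It lay at 11.76 and 11.71 in untreated arrays and at 11.51, 11.69, 11.58, 11.63 and 11.55 in IL-12 2 h arrays 2 to 6. At 8 h it lay at 10.41 and 10.67 in arrays 2 and 3 and at 11.28 and 11.45 in arrays 5 and 6. The 4 arrays at 8 h were all below the 5 at 2 h, which 4.23% of all genes were. Against IL-12 2 h Cish fell by 0.68 on the log2 scale (SE 0.13, 1.60-fold, limma adjusted p = 0.00336). Against untreated cells the log2 change was -0.60 ± 0.18 (limma adjusted p = 0.0983), which became -0.775 with adjusted p = 0.0327 without IL-12 8 h array 6, and -0.37 ± 0.10 in arrays numbered 5 to 8 (limma adjusted p = 0.127). The baseline array, at 11.33, lay between 8 h arrays 5 and 6.

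The Cish window is chr9:107296409-107296708 of GRCm38.p6 on the plus strand, and is shown because Cish had the smallest p of the 8 genes in the model of IL-12 8 h against 2 h. It holds TTCNNNGAA 2 times, in capitals.

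Cish: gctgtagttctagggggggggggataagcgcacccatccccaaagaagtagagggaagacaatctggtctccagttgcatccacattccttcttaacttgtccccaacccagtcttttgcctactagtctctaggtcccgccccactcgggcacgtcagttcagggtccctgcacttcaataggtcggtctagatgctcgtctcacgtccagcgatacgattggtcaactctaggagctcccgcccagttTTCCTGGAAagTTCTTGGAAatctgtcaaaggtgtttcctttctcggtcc

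The matches are TTCCTGGAA, which begins at base 1 after the start, and TTCTTGGAA, which begins at base 12.

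From 2 h to 8 h of IL-12 all 8 members had a negative change in the model, and 5 of the 8 fell past the threshold, beside 6.36% of all genes called lower. The median change of the 8 was -0.29, beside -0.0090 over all genes. Longer exposure to IL-12 and longer culture cannot be told apart in this comparison. Besides Cish, the falls were those of Socs1, the inhibitor of interferon and IL-2 signalling (-0.38 ± 0.10, adjusted p = 0.0227), Socs4 (-0.33 ± 0.10, adjusted p = 0.0385), Socs7 (-0.24 ± 0.06, adjusted p = 0.0227) and Socs6 (-0.20 ± 0.06, adjusted p = 0.0419). Socs2 had the second largest change but missed the threshold (-0.60 ± 0.19, adjusted p = 0.0547). Socs3 (-0.19 ± 0.09, adjusted p = 0.227) and Socs5 (-0.08 ± 0.06, adjusted p = 0.438) did not pass either.

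With the title number as a replicate block (4 pairs), limma called Cish (adjusted p = 0.0388) and Socs7 (0.0437), while Socs1, Socs4 and Socs6 had adjusted p = 0.132, 0.0888 and 0.144. The count of 5 became 3 with median centring, 1 with the mean of the macrophage markers as covariate and 0 without the run term, and 1 without IL-12 2 h array 2 or 8 h array 2, 2 without IL-12 2 h array 3 or 4, and 3 without 8 h array 3.

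**Figure D2:**
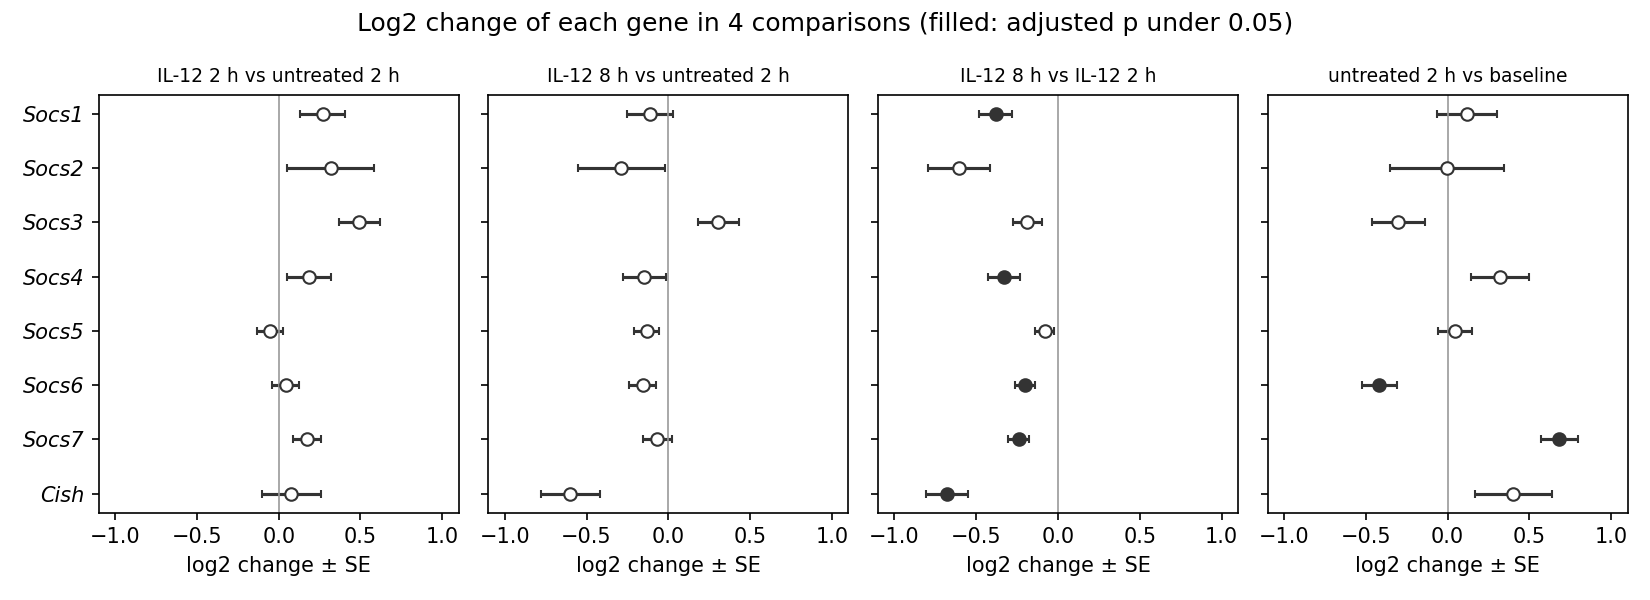
Log2 change ± SE from the model (horizontal axis) of each gene (vertical axis) in the 4 comparisons; filled symbols passed adjusted p under 0.05. In the comparison of IL-12 8 h with 2 h 5 genes are filled, all to the left of 0, and in the comparisons with untreated cells none is.

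The fall between 2 h and 8 h was not the same in both runs. Socs2, an inhibitor of growth hormone and other STAT5 pathways, lay at 12.07, 11.97 and 11.997 in IL-12 2 h arrays 2, 3 and 4, and at 10.70 and 10.87 in 8 h arrays 2 and 3. In arrays 5 and 6 it lay at 11.45 and 11.52 at 2 h and at 11.64 and 11.61 at 8 h, close to untreated (11.48 and 11.60) and baseline (11.54). So Socs2 fell 2.34-fold in the first run (log2 -1.23 ± 0.08, limma adjusted p = 5.21e-07) and had 0.14 ± 0.08 in the second (limma adjusted p = 0.399). The difference between the runs was -1.37 ± 0.11 (limma interaction term, adjusted p = 8.30e-05). Ranked by p, Socs2 was number 7 of 19752 genes in that test, in which 1.96% of genes were called.

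Cish and Socs1 differed between runs as well, so that 3 of the 8 genes were called in the interaction, all lower, beside 0.987% of all genes called lower. Cish fell 2.07-fold in arrays numbered 2 to 4 (log2 -1.05 ± 0.10, adjusted p = 1.27e-05) and had -0.23 ± 0.10 in the others (adjusted p = 0.247); the difference was -0.82 ± 0.14 (limma adjusted p = 0.0104). Socs1 lay at 10.84, 10.98 and 10.89 at 2 h and at 10.27 and 10.22 at 8 h in the first run, and at 10.80 and 10.66 against 10.66 and 10.71 in the second. It fell 1.58-fold in the first run (log2 -0.66 ± 0.08, adjusted p = 0.000109) and had -0.05 ± 0.08 in the second (adjusted p = 0.823). The difference was -0.61 ± 0.11 (limma adjusted p = 0.0175). Leaving out 1 array at a time, the Socs2 difference passed in 9 of 9 fits. The Cish difference missed without 8 h array 2 (adjusted p = 0.0595) or 8 h array 6 (0.0551), and that of Socs1 in 6 of the 9 fits, with adjusted p up to 0.0746.

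The untreated arrays, at 10.72 and 10.54, and the baseline array, at 10.51, overlapped or adjoined the Socs1 values of IL-12 arrays 5 and 6. The Socs1 window, chr16:10785487-10785786 of GRCm38.p6 on the minus strand, is shown as that of a gene that fell together with Cish and Socs2 in the first run. Capitals mark GAAA followed after 2 bases by GAAA, letters of an interferon regulatory factor element, searched on both strands; 3.44% of all windows hold it.

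Socs1: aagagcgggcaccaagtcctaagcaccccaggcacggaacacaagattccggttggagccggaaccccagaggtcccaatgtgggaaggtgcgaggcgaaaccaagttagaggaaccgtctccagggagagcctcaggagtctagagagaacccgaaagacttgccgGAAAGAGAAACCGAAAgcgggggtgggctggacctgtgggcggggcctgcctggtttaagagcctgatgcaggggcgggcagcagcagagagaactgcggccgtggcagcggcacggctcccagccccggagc

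The matches, GAAAGAGAAA and GAAACCGAAA, begin at bases -83 and -77 from the start and overlap. The window has no TTCNNNGAA. Windows of 4 members were matched in the table, and that of Socs4 has none of the motifs searched.

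None of the remaining 5 members passed the test of the difference between runs. Socs3 fell in arrays numbered 2 to 4 (log2 -0.40 ± 0.09, adjusted p = 0.0103), and its difference between runs was -0.47 ± 0.13 (adjusted p = 0.107). Socs6 also fell there (-0.28 ± 0.07, adjusted p = 0.0218), with a difference of -0.17 ± 0.11 (adjusted p = 0.516). Socs4 fell in arrays numbered 5 to 8 (-0.48 ± 0.11, adjusted p = 0.0277), where it lay at 9.92 and 10.23 at 2 h and at 9.71 and 9.49 at 8 h; its difference was 0.27 ± 0.15 (adjusted p = 0.479). Socs7 had -0.24 ± 0.09 in both runs and a difference of 0.0010 ± 0.13, and Socs5 had a difference of -0.08 ± 0.11 (adjusted p = 0.812). In all, 5 members fell in the first run, beside 6.11% of all genes called lower, and 1 in the second, beside 4.17%. Macrophage and monocyte markers, which moved with the run, had a median difference of -0.12 in the same interaction test, and 0 of 15 passed. With their mean as covariate the same 3 genes, Socs1, Socs2 and Cish, were called. That fit takes the slope of the covariate only from arrays alike in time and run. The part of these markers in the result was therefore not tested. The mean of 8 dendritic cell markers lay between 7.01 and 7.06 at 2 h and at 6.82 and 6.83 at 8 h in arrays numbered 2 to 4, and between 6.73 and 6.86 at both times in the others; 0 of the 8 passed the interaction test. The CD4 T cell mean lay between 12.01 and 12.09 at 2 h and between 12.16 and 12.201 at 8 h, with 2 of 7 markers called higher at 8 h and 0 of 7 in the interaction. The part of both lists in the result was not tested.

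**Figure D3:**
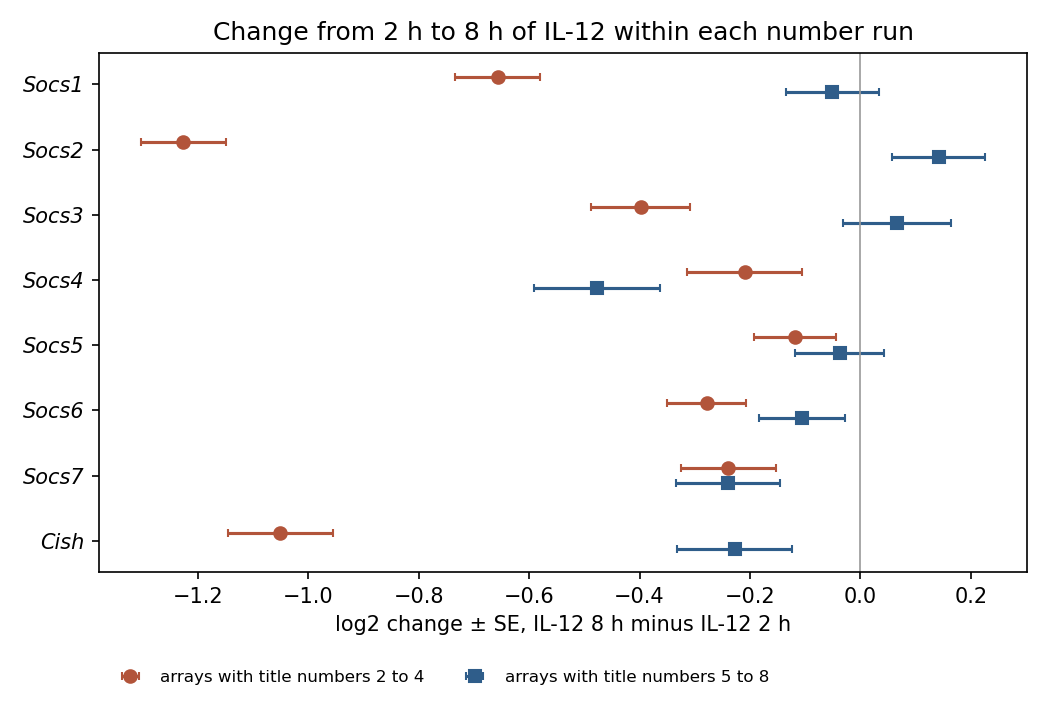
Log2 change ± SE from 2 h to 8 h of IL-12 (horizontal axis) of each gene (vertical axis) within arrays numbered 2 to 4 (circles) and 5 to 8 (squares). The runs lie far apart for Socs2 (-1.23 and 0.14), Cish (-1.05 and -0.23) and Socs1 (-0.66 and -0.05) and together for Socs7 (-0.24 in both).

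The run term of the model called 3 members, beside 24.3% of all genes. Only the IL-12 groups inform this term, because untreated and baseline arrays all carry numbers 5 to 8. Socs3 was higher in arrays numbered 2 to 4 (0.51 ± 0.09, limma adjusted p = 0.00102), as was Socs6 (0.23 ± 0.06, adjusted p = 0.0140), and Socs7 was lower (-0.35 ± 0.06, adjusted p = 0.00129). For Socs3 the means of the first and second run were 10.03 and 9.31 at 2 h of IL-12, and 9.63 and 9.38 at 8 h. What sets the runs apart is not given in the labels.

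Between baseline and untreated 2 h cells, which received no cytokine, 2 members were called, beside 10.2% of all genes. Socs7, a larger family member known to bind adaptor proteins, lay at 8.21 in the baseline array and at 8.95 and 8.83 in the untreated arrays, a rise of 0.68 ± 0.11 (1.61-fold, limma adjusted p = 0.00169). The baseline value was also the lowest of the 12 arrays for Socs7. Socs6, which targets receptor kinases and Lck, lay at 8.79 at baseline and at 8.29 and 8.45 in untreated cells (-0.42 ± 0.11, limma adjusted p = 0.0246). Cish (0.40 ± 0.24), Socs4 (0.32 ± 0.18) and Socs3 (-0.30 ± 0.16) had adjusted p between 0.302 and 0.345. Socs1, Socs2 and Socs5 had changes of 0.12, -0.0047 and 0.04. Both differences ran the same way as the gene's difference between runs: the baseline array was low in Socs7 and high in Socs6, as were arrays numbered 2 to 4, which the baseline array resembled. The part of the run in them was not tested. By number, untreated and baseline arrays fall in 1 run, so the run term leaves their difference as it is and enters only through the spread. The single baseline array has no spread of its own, so the spread came from the other groups; 0 members passed without the run term or with the macrophage covariate, and the Socs6 call was lost without untreated array 7 (-0.34, adjusted p = 0.115) and in arrays numbered 5 to 8 fitted alone (-0.42 ± 0.12, limma adjusted p = 0.0748).

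Socs4 and Socs5, related members best known for acting on the EGF receptor, differed in how far they varied. Socs5 lay between 8.50 and 8.75 on all 12 arrays and was called in no comparison. Socs4 lay at 9.61 and 10.02 in the 2 untreated arrays and at 9.50 in the baseline array. The gap between the untreated arrays was wider than each Socs4 change of the model between groups. It was narrower than the change from 2 h to 8 h within arrays numbered 5 to 8 (-0.48). All 4 Socs4 values at 8 h of IL-12 (9.51, 9.66, 9.71 and 9.49) lay at or below all 5 at 2 h (9.88, 9.71, 9.78, 9.92 and 10.23), by unrounded values without overlap, which 4.23% of all genes showed in that direction.

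The other probe sets did not always repeat these values. That of Socs2 (probe set 10372069) was dimmer, between 8.57 and 9.64, and showed the same split between runs (-0.98 ± 0.14, limma adjusted p = 0.00382 over all probe sets). The other probe set of Socs3 (10383010) lay between 7.21 and 7.86 and changed by 0.024 ± 0.079 from 2 h to 8 h, against -0.19 for the brighter one. Its run term was 0.12 ± 0.08 (limma adjusted p = 0.299), so the Socs3 run call was not repeated. Its difference between runs was 0.14 ± 0.15, against -0.47. Against untreated cells it had 0.23 ± 0.11 at 2 h and 0.25 ± 0.11 at 8 h, not called. All 9 IL-12 arrays exceeded both untreated arrays on this probe set too. For Socs6, probe set 10460118 fell by 0.35 from 2 h to 8 h (SE 0.06, limma adjusted p = 0.00257) but had -0.11 ± 0.12 between untreated and baseline, where the brighter probe set was called. The third, 10460116, stayed between 3.52 and 3.78.

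Across the 12 arrays Socs1, Socs2 and Cish varied together. Pearson correlations of deposited log2 values were 0.89 for Socs1 with Socs2, 0.82 for Socs1 with Cish and 0.81 for Socs2 with Cish, while Socs3 with Cish gave -0.16. After removal of the fitted run term they were 0.89, 0.88 and 0.88, and Socs3 with Cish turned to 0.44. These describe arrays that share groups and runs. With the run term removed, the genes most like Socs1 over the 12 arrays were Osm, the oncostatin M gene (r = 0.98, and 0.94 as deposited), Ifit1 and Batf2 (both 0.97, and 0.62 and 0.76 as deposited), of which Osm also stood in the lists below. The genes most like Cish were Rnf19b (0.98), Mcoln2 and Tnfrsf4, which encodes OX40 (both 0.97); as deposited these were 0.85, 0.59 and 0.82. For Socs2 they were Ajuba, Cd40 (both 0.98) and Enthd1 (0.97), and for Socs3 Cysltr2 (0.94), Fate1 and St7l (both 0.91). The deposited values gave 0.84, 0.73 and 0.71 for the Socs2 genes and 0.96, 0.71 and 0.96 for the Socs3 genes.

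Of 19 measured ligand genes of JAK-STAT receptors, 12 fell from 2 h to 8 h of IL-12, 0 rose and 7 were not called, beside 6.36% of all genes called lower, with a median of -0.38 beside -0.0090 over all genes. Il2, the ligand whose receptor drives STAT5, changed by -2.10 ± 0.20 (limma adjusted p = 1.32e-05), and other calls were those of Il3 (-1.67 ± 0.18), Lif (-1.60 ± 0.11) and Il4 (-1.48 ± 0.14). In the difference between runs 8 of the 19 were called lower and 1, Il21, higher, beside 0.987% of all genes called lower. Il2 fell by 2.71 in the first run and by 1.37 in the second, a difference of -1.33 ± 0.17 (adjusted p = 0.00218). The run term also called Il2 lower in arrays numbered 2 to 4 (limma adjusted p = 1.29e-05). The Socs2 mean at 2 h of IL-12 was higher there (12.01 against 11.48), and that at 8 h lower. From baseline to untreated cells Il2 changed by 3.06, Socs2 by -0.0047, Cish by 0.40 and Socs1 by 0.12. Cish and Socs1 had run terms of -0.37 and -0.10, not called. The part of Il2 in the changes of the members was not tested. The named genes of the interaction were Osm (-1.41 ± 0.13), Il3 (-1.18 ± 0.15), Il13 (-1.17 ± 0.11) and Ifng (-0.95 ± 0.12).

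Some genes known to respond to STAT5 also differed between runs. Of 16 measured, 6 were called lower and 0 higher in the interaction, beside 0.987% of all genes, with a median of -0.36 beside -0.012. They included Osm, Lta, a TNF family ligand (-1.23 ± 0.12), Il4ra, a chain of the IL-4 receptor (-0.94 ± 0.10), and Bcl2l1, which encodes the survival protein BCL-XL (-0.86 ± 0.11), with adjusted p from 0.000137 to 0.00219. The lists share genes: Osm is also a ligand, Lta a STAT4-responsive and Th1 gene, and Il4ra and Bcl2l1 STAT3-responsive genes. Stat5a itself was lower by -0.54 ± 0.11 (adjusted p = 0.0244), the only call among 9 measured kinases and STATs. In the same test 3 of 13 STAT3-responsive genes, 3 of 14 STAT4-responsive and Th1 genes and 4 of 24 receptors were called lower. Each of those lists had 1 call higher. Of 20 other inhibitors 0 were called lower and 1 higher, and of 10 ligase partners 0 were called.

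**Figure D4:**
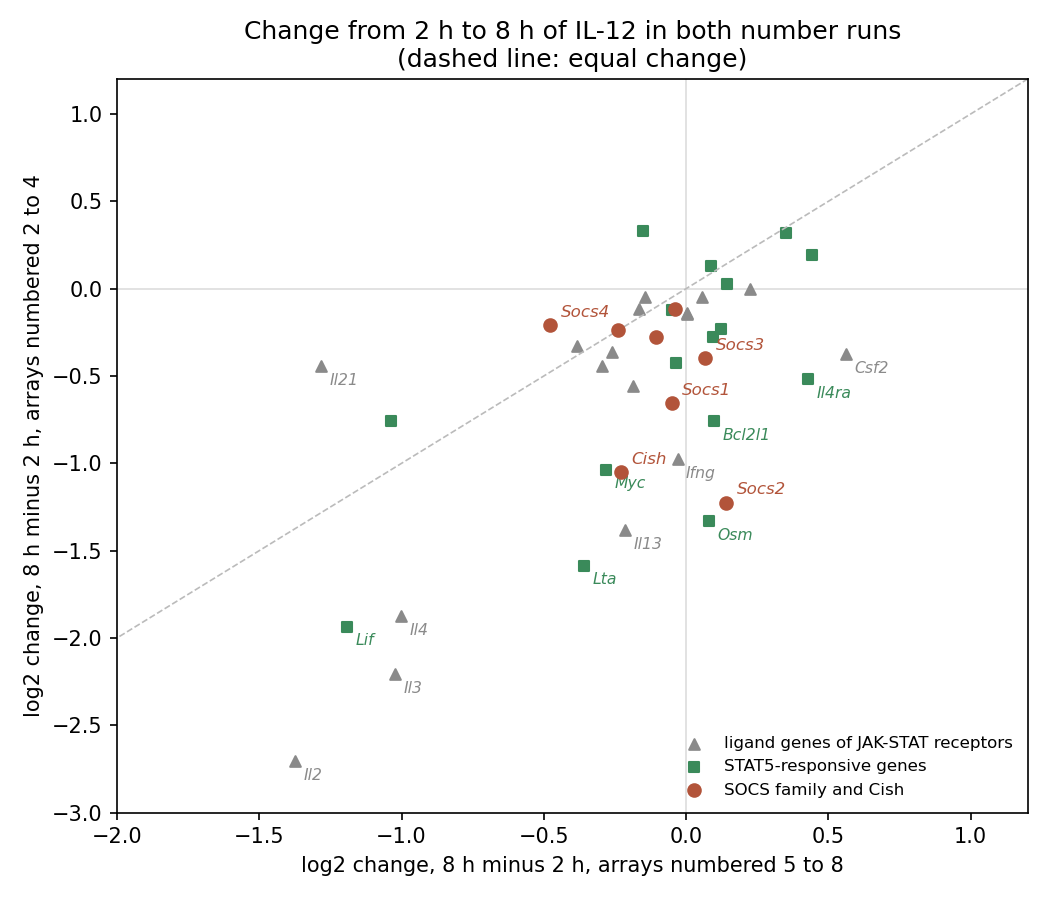
Log2 change from 2 h to 8 h of IL-12 in arrays numbered 5 to 8 (horizontal axis) and 2 to 4 (vertical axis) for the 8 members (circles), STAT5-responsive genes (squares) and other ligand genes (triangles). Points under the dashed line changed further down in arrays numbered 2 to 4, among them Socs2 (0.14 and -1.23), Osm (0.08 and -1.33) and Il2 (-1.37 and -2.71).

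The counts of the other pathway lists stand beside 6.36% of all genes called lower from 2 h to 8 h. Of 20 other inhibitors of cytokine signalling, 6 fell from 2 h to 8 h and 0 rose (median -0.099), among them the adaptor gene Sh2b3 (-0.68 ± 0.06, adjusted p = 1.52e-05) and the phosphatase gene Ptpn1 (-0.43 ± 0.08, adjusted p = 0.00219). Of 10 SOCS box ligase partners 1 fell, Arih2 (-0.22 ± 0.06, adjusted p = 0.0375), and the median was -0.013. Kinases and STATs had 3 falls of 9: Jak2 (-0.59 ± 0.09), Stat3 (-0.24 ± 0.05) and Stat5a (-0.31 ± 0.09). Receptors had 4 falls of 24, led by Il6ra (-0.61 ± 0.06) and Il15ra (-0.60 ± 0.06). STAT3-responsive genes had 6 falls of 13, led by Fosl2 (-1.15 ± 0.08).

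At 2 h of IL-12 the same lists held few calls, as did all genes (0.0709%). Ifng, the signature cytokine gene of Th1 cells, rose by 1.94 ± 0.20 (limma adjusted p = 0.00250), and of 14 STAT4-responsive and Th1 genes 3 rose: Furin, Il18rap and Il18r1. Both IL-12 comparisons share the 2 untreated arrays. In the receptor, kinase, inhibitor, ligase, STAT5 and STAT3 lists 0 genes passed in limma, with medians between 0.030 and 0.16. Against untreated cells at 8 h, where 3.16% of all genes were called, 0 members passed in limma or in its fit with an intensity trend and robust variances, 2 (Socs3 and Cish) had an unadjusted p under 0.05, 7 of the 8 had a negative value and the median was -0.14, beside -0.0094 over all genes.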

How the data were processed

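RNA of 12 samples was hybridised to Affymetrix Mouse Gene 1.0 ST arrays. The authors deposited linear-scale intensity values of 24922 probe sets, made with RMA and Affymetrix Power Tools per the submitters' processing notes; no version or genome build is named in the sources used. As a method, RMA corrects background, equalises arrays and summarises probes. Array medians ran from 160.6 to 167.3. Log2 values were taken with no further normalization. Probe sets with several symbols (1399) or none (2098) were left out, and 21347 of the rest matched the current gene table. Each gene took its probe set of highest mean.

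All 12 arrays entered 1 model with 4 group means and the number run (lmFit and eBayes, limma 3.58.1, R 4.3.3; 7 residual and 6.84 prior degrees of freedom; two-sided). The difference between runs is the interaction of time and run over the 9 IL-12 arrays; within-run changes of IL-12 8 h against 2 h come from that fit, other within-run values from arrays numbered 5 to 8. Deviations of same-numbered IL-12 arrays from their group means correlated at 0.30 to 0.52 in 4 pairs, and at -0.45 to -0.15 once the run was fitted. The first values still contain the run. In the second, the fit itself sets the 2 h and 8 h residuals of a run against each other. Neither can therefore decide whether equal title numbers mark pairs.

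Members, lists and tests were chosen with earlier results of these data known. Named genes were all members, up to 4 called genes of smallest p per list, or 2 if none passed, of which some are printed, Ifng and Il2, and the 3 genes most correlated with Socs1, Socs2, Socs3 and Cish. The tests were tried on simulated data. A further gene list is not reported here. Sequences are from RefSeq, GRCm38.p6. Plots were drawn with Python 3.11.15 and matplotlib 3.10.9.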

Additional observations from a re-analysis of the deposited data

Results flagged for a closer look

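The change from 2 h to 8 h of IL-12 differed between arrays numbered 2 to 4 and arrays numbered 5 to 8, by an interaction term in limma, for 3 members. The difference was -1.37 log2 units for Socs2, -0.82 for Cish and -0.61 for Socs1, each a larger fall in arrays numbered 2 to 4. In that run all 8 members were lower at 8 h without overlap, and 22.1% of all genes were. No single array stood apart from its group in the 16 sets tested, which are the 8 genes in the 2 groups of 4 or more arrays. Each set holds arrays of both runs, so a spread between runs can hide a single deviating array.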

How the results depend on the processing

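Leaving out each array in turn gave 0 to 1 members called for IL-12 8 h against untreated, 1 to 5 for IL-12 8 h against 2 h, 1 to 2 for untreated against baseline, 1 to 3 for the difference between runs, and 0 throughout for IL-12 2 h against untreated. For IL-12 8 h against 2 h the count of 5 was 0 without the run term, 0 in arrays numbered 5 to 8 fitted alone, 1 in those arrays from the interaction fit, 1 with the macrophage covariate, 3 with median centring and 2 with the replicate block. For untreated against baseline the count of 2 was 0 without the run term, 0 with the macrophage covariate 1 with probe sets averaged and 1 in arrays numbered 5 to 8 fitted alone, and for the run itself the count of 3 was 0 with the macrophage covariate; the cause was not tested.

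Sign changes touched only values that had not passed in the model. In arrays numbered 5 to 8 they were -0.055 (Socs2), -0.0036 (Socs6) and -0.15 (Cish) for IL-12 2 h and 0.052 (Socs1) and 0.087 (Socs2) for IL-12 8 h against untreated, and 0.14 (Socs2) and 0.067 (Socs3) for 8 h against 2 h. Without the run term, Socs7 and Cish had -0.037 and -0.14 for IL-12 2 h. With untreated and baseline pooled, Socs6 had -0.096 for IL-12 2 h and Socs7 0.16 for 8 h. With the macrophage covariate, Socs1 and Socs2 had 0.0021 and 0.020 for 8 h against untreated, Socs1 -0.13 for untreated against baseline, Socs1 and Socs2 0.17 and 0.64 for the run, and Socs7 -0.043 for the difference between runs. Renormalized by quantiles, Socs2 had 0.014 against baseline, Socs5 0.0081 for the run and Socs7 -0.020 between runs; centred on medians, Socs2 had 0.0024 and Socs7 -0.0051; with probe sets averaged, Socs2 had 0.0015 and Socs6 0.0090.

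Without 1 array, ranges that crossed 0 were -0.017 to 0.39 (Socs4), -0.11 to 0.0048 (Socs5) and -0.034 to 0.12 (Socs6) for IL-12 2 h, -0.35 to 0.057 (Socs4) for IL-12 8 h against untreated, -0.065 to 0.055 (Socs2) and -0.013 to 0.10 (Socs5) against baseline, -0.27 to 0.071 (Socs2) and -0.054 to 0.0019 (Socs5) for the run, and -0.074 to 0.076 (Socs7) between runs. The number of arrays limits the precision: 2 untreated and 1 baseline array.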
